A study of Mus musculus with 11 samples.

Results

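Neurons store peptide transmitters in dense-core granules and release them beside their fast transmitter. Precursor proteins enter these granules with granins, are cut by prohormone convertases and trimmed to active peptides, and the peptides then act on G-protein-coupled receptors. In the retina, peptides are best known from amacrine cells, the inhibitory interneurons, while ganglion cells carry many of the receptors and a few of the precursors. The 37 genes described here cover this system in J-RGCs, a direction-selective retinal ganglion cell type. They are 16 neuropeptide precursors, 7 granins and other secreted granule or synaptic proteins, and 14 peptide receptors, chosen by gene symbol from the 24421 genes counted. All 37 symbols had a row in every library, 34 had at least 1 read, and 24 passed the filter on low counts and were tested.

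The libraries came from J-RGCs that a reporter transgene marked with green fluorescent protein in both genotypes. Retinas were from mice of postnatal day 4 to 5 with a mixed C57BL/6 and CD1 background, and the genotypes were WT (control) and Tbr1 KO. The Tbr1 protein is a transcription factor of the T-box family. The sources used here do not name the driver of the reporter or say which part of Tbr1 was removed and in which cells. Each library held the RNA of 100 sorted cells. Of the 5 control libraries, numbers 2 and 3 are pools of 1 animal, here control animal b, and numbers 1, 4 and 5 are control animals a, c and d. Of the 6 mutant libraries, numbers 1 and 2 are pools of mutant animal a, numbers 3 and 4 are pools of mutant animal b, and numbers 5 and 6 are mutant animals c and d. Counts were summed per animal, so the comparison set 4 animals against 4 and asked which of these transcripts differed between the J-RGC pools labelled WT and Tbr1 KO.

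Reads on genes ranged from 8609845 to 34718693 per library. Levels are TMM-normalised CPM, the reads on a gene scaled to library size, for which 1 CPM stands for 24.8 to 55.7 reads in an animal. Levels of different genes are compared per kilobase of annotated exon. The sorted cells carried ganglion cell markers at a summed 11073 to 13316 CPM in controls and 12507 to 14001 CPM in mutants. Nefl held the largest part of that sum, at 3910 to 5772 and 5552 to 6764 CPM. Pou4f2 (264 to 295 and 124 to 200 CPM) and Thy1 (382 to 458 and 260 to 359 CPM) were lower in mutants without overlap. Of the 11 markers, 6 were positive and 5 negative in log2 fold change. None had an edgeR adjusted p under 0.05, and 7 had an unadjusted edgeR p under 0.05. Jam2, the gene this cell type is known for, was at 528 ± 85.6 CPM in controls and 107 ± 21.5 CPM in mutants (SD, n = 4). Tbr1 was still counted in every mutant animal, at 94.2 to 145 CPM against 155 to 193 CPM in controls, with no overlap, a log2 fold change of -0.50 ± 0.15 (SE) and an edgeR adjusted p of 0.369. With the deleted part not given, these gene-level counts do not check the label. Photoreceptor markers summed to 80.5 to 406 CPM in control animals and 69.5 to 1389 CPM in mutants, with all 14 tested markers of the list positive in log2 fold change (exact two-sided permutation p = 0.371 for the sum, n = 4 against 4). Amacrine markers summed to 530 to 777 CPM in controls and 899 to 1113 CPM in mutants. Part of that sum was Pax6, which ganglion cells can express too, at 227 to 238 CPM in controls and 260 to 296 CPM in mutants, while the amacrine genes Gad1, Slc32a1, Chat and Th were each at 2.29 CPM or less in every animal. Horizontal cell markers summed to 48 to 71.7 CPM in controls and 97 to 135 CPM in mutants, with Lhx1 at 0. All 5 tested were positive in log2 fold change, but only Sept4 (26.1 to 50.8 and 63.6 to 94.2 CPM) and Calb1 (8.68 to 21 and 22.9 to 40.5 CPM) did not overlap. Müller glia and progenitor markers summed to 325 to 423 and 467 to 732 CPM. All 11 tested were positive, and 2 had an edgeR adjusted p under 0.05. Only Dkk3 (125 to 190 and 240 to 291 CPM) and Clu (54.1 to 65.6 and 92.3 to 117 CPM) did not overlap. The horizontal cell, Müller glia and progenitor, and amacrine sums did not overlap between genotypes (exact two-sided permutation p = 0.0286, adjusted over 8 lists 0.0571, n = 4 against 4). The part of such cells in the results on the members was not tested.

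Of the 24 tested genes, 1 was called different between genotypes, and it was a receptor. Tacr1, which encodes the substance P receptor, rose in the mutants. None of the 9 tested precursors, the 7 granule and secreted proteins or the other tested receptors passed the threshold of 0.05 on the adjusted p-value of edgeR's quasi-likelihood test. Over all 13957 tested genes, 0.287% passed in either direction, 0.0860% as higher and 0.201% as lower in the mutants. Without adjustment, 3 of the 24 members and 7.09% of all tested genes had a p under 0.05. The members were chosen with earlier results of these data known, so setting them beside these shares does not test the list.

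The promoter windows of the 2 members whose control and mutant animals did not overlap, Tacr1 and Nxph1, are shown because T-box proteins bind sites that centre on a short core. Each window runs from 250 bases before to 50 bases after the RefSeq start site (GRCm38.p6), on the plus strand, at chr6:82402225-82402524 for Tacr1 and chr6:8949769-8950068 for Nxph1. Capitals mark the core AGGTGT, which was searched on both strands as AGGTGT or ACACCT.

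Tacr1: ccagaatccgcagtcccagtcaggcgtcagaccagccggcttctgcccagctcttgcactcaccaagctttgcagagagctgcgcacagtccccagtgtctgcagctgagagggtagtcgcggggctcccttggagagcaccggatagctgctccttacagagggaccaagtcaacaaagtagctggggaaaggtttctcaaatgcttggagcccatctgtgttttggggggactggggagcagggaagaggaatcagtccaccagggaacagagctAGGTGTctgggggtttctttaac
Nxph1: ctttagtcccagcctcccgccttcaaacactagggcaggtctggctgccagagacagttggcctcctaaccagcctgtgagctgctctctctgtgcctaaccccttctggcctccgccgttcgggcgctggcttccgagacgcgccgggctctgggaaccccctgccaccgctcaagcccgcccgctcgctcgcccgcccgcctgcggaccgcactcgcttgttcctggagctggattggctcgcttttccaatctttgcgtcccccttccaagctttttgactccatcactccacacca

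The Tacr1 window held 1 match, which begins 27 bases after the start site, and the Nxph1 window held none. Of 32851 windows of this length in the RefSeq table, 4514 (13.7%) held the core. The table had windows for 30 of the 37 genes, and 7 of their 36 windows held it, from Adcyap1, Gal, Tacr1, Tacr3, Npy1r and Oprl1. A match describes the letters in the window and shows no binding.

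Tacr1 (ENSMUSG00000030043, GRCm38 chromosome 6, 82402334 to 82560104, plus strand) shares no exon with another annotated gene. The control libraries 1 to 5 held 6, 3, 1, 6 and 2 reads of it. The mutant libraries 1 to 6 held 208, 44, 253, 137, 180 and 266 reads. Every mutant library lay far above every control library, and both pools of a mutant animal were high. Per animal, Tacr1 was at 0.242, 0.104, 0.174 and 0.0628 CPM in control animals a to d and at 5.61, 7, 5.34 and 8.34 CPM in mutant animals a to d, which do not overlap.

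The means of Tacr1 were 0.146 ± 0.079 CPM in controls and 6.57 ± 1.38 CPM in mutants (SD, n = 4), a ratio of 45.1. The fitted log2 fold change was 5.48 ± 0.83 (SE), with an adjusted p of 0.0133 in edgeR's quasi-likelihood test with Benjamini-Hochberg adjustment. Its control level rests on 18 reads in all, and none of the control animals alone reached the 0.297 CPM at which the filter counts an animal. Per kilobase, the mutant animals reached 1.28 CPM at most, so Tacr1 stayed far under the leading member receptor, Oprl1, whose lowest animal was at 11.2 CPM per kilobase. With control animal b left out, or any of mutant animals a, b and d, the call was lost, at edgeR adjusted p of 0.0552 to 0.089, while the log2 fold change stayed between 5.24 and 5.82 over 19 alternative fits. In bulk pools, a higher level per cell and a larger share of cells with the transcript cannot be told apart.

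**Figure D1:**
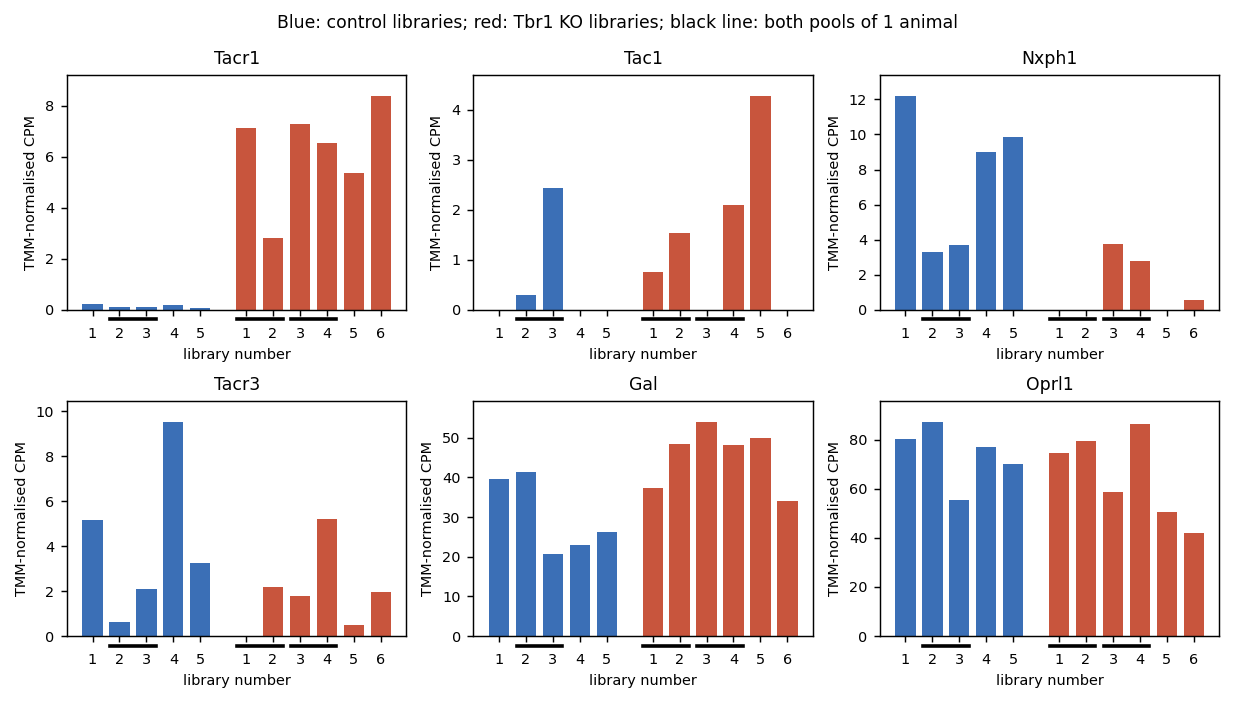
Level in each library (TMM-normalised CPM, linear axis from 0) of Tacr1, its ligand precursor Tac1, and Nxph1, Tacr3, Gal and Oprl1. Blue bars are the 5 control libraries, red bars the 6 Tbr1 KO libraries, and black lines join both pools of 1 animal. Tacr1 was at 0.241 CPM or less in the controls and at 2.82 to 8.38 CPM in the mutant libraries, while Oprl1 overlapped between genotypes.

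Transcripts of the precursors of this receptor's ligands were scarce in the same pools. Tac1, the precursor of substance P and neurokinin A, had 9 and 21 reads in control libraries 2 and 3 and 0 in the other 3 control libraries. In mutant libraries 1 to 6 it had 22, 24, 0, 44, 144 and 0 reads. Reads of Tac1 were thus found in 1 of 4 control animals and 3 of 4 mutant animals, and both genotypes held animals at 0. Its log2 fold change was 2.92 ± 1.98 (SE), with an edgeR adjusted p of 0.872. That value was 8.81 without control animal b, which leaves the Tac1 controls at 0 reads, and 1.61 without mutant animal c, so it rests on single animals. Mutant animal c, with the highest Tac1 level of 4.27 CPM, also had the highest photoreceptor sum of 1389 CPM, and the part of other cells in its Tac1 reads was not tested. Tac4, which encodes a further tachykinin, was at 0 CPM in 5 of 8 animals and at 1.49 to 2.42 CPM in the others. Tac2, the precursor of neurokinin B, had 0 reads in all 11 libraries, where 3 reads over all animals would have been 0.0101 CPM, a floor that covers counting error only.

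Tacr3, the receptor for neurokinin B, gave no call. Its levels were 5.2, 0.958, 9.55 and 3.23 CPM in control animals a to d and 0.757, 3.07, 0.504 and 1.97 CPM in mutant animals a to d. The lowest control animal lay inside the mutant range, and the log2 fold change was -1.58 ± 0.90 (SE) with an edgeR adjusted p of 0.813, and it was -0.99 without control animal c. The pools of mutant animal a gave 0 and 34 reads of Tacr3. The third tachykinin receptor, Tacr2, was counted in mutant animal b alone, at 0.736 CPM.

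Nxph1 was the other member whose animals did not overlap, and it was lower in the mutants. It encodes a neurexophilin, a secreted ligand of alpha-neurexins, and lies on chromosome 6 from 8948431 to 9249032 on the plus strand. Control libraries 1 to 5 held 304, 99, 32, 311 and 314 reads, and mutant libraries 1 to 6 held 0, 0, 130, 58, 0 and 18 reads. Mutant animals a and c had none, mutant animal d had 0.564 CPM and mutant animal b had 3.37 CPM, next to 3.39 CPM in the lowest control, animal b. The other controls, a, c and d, were at 12.3, 9.03 and 9.86 CPM. With libraries scaled by total counts the animals overlapped.

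The means of Nxph1 were 8.64 ± 3.75 CPM in controls and 0.984 ± 1.61 CPM in mutants (SD, n = 4). Its log2 fold change of -3.12 ± 1.38 (SE) did not pass, with an edgeR adjusted p of 0.683, and none of 19 alternative fits called it. The Nxph1 log2 fold change was -5.53 without mutant animal b and -5.28 with limma voom. Non-overlap was found for 2 of the 24 tested members and for 5.06% of all tested genes, 2.58% as higher and 2.48% as lower in the mutants. Neurexophilins bind neurexins, of which neither Nrxn2 nor Nrxn3 passed: Nrxn2 was at 67.2 ± 5.64 and 64.1 ± 14.5 CPM and Nrxn3 at 107 ± 23.8 and 154 ± 50.3 CPM in controls and mutants (SD, n = 4 each). Nxph4, a relative of Nxph1, went the other way in its mean, from 2.22 ± 1.98 to 7.97 ± 9.22 CPM, with an edgeR adjusted p of 0.763. Its log2 fold change was 1.84 ± 0.93 (SE), and 0.62 without mutant animal c. Mutant animal c alone was at 21.7 CPM of Nxph4, against 2.18 to 5.2 CPM in the other mutants and 0.465 to 4.43 CPM in controls, and it was also the animal with the highest photoreceptor sum. The part of other cells in that level was not tested.

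**Figure D2:**
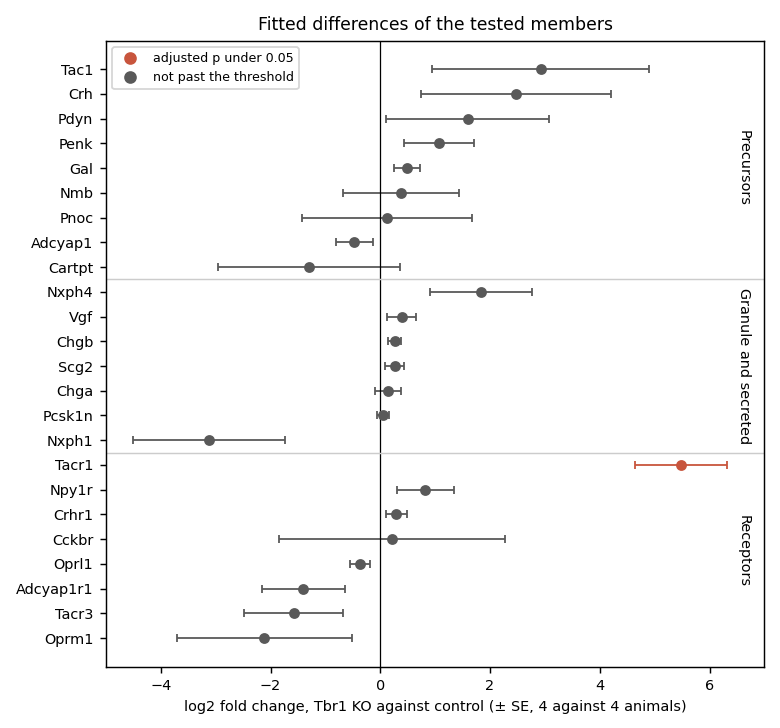
Fitted log2 fold change of the 24 tested members in Tbr1 KO against control animals, with bars of 1 SE (n = 4 against 4), grouped as precursors, granule and secreted proteins, and receptors. Tacr1, in red, is the member past the threshold, at 5.48 ± 0.83; Nxph1 is the lowest at -3.12 ± 1.38, and the granins sit close to 0 with short bars.

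The 4 members with the highest levels per kilobase were granule proteins, Pcsk1n and the granins Chgb, Scg2 and Chga, and none of them was called different between genotypes. Pcsk1n, which encodes proSAAS, an inhibitor of prohormone convertase 1, had the highest level at 118 CPM per kilobase of exon. Its exons partly overlap those of Eras on the other strand, and whether counting used strand is unknown here, so reads of both genes may be mixed. It was at 222, 246, 285 and 262 CPM in control animals a to d and at 246, 246, 277 and 282 CPM in mutant animals a to d. These values interleave, and the log2 fold change was 0.05 ± 0.11 (SE).

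The granins Chgb, Scg2 and Chga, acidic proteins that drive granule packing, followed at 75.1, 50.4 and 50.2 CPM per kilobase. The lowest animal of Chgb, at 62 CPM per kilobase, lay above every animal of Scg2 (35 to 59.1) but inside the range of Chga (33.5 to 70.4). Chgb was at 190, 170, 204 and 186 CPM in control animals a to d and at 193, 231, 242 and 229 CPM in mutant animals a to d. Of these mutants 3 lay above all controls, and the means were 187 ± 14 and 224 ± 21.2 CPM (SD, n = 4). The log2 fold change of Chgb was 0.26 ± 0.12 (SE), with an edgeR adjusted p of 0.689.

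Scg2 was at 96.5, 88, 149 and 129 CPM in control animals a to d and at 142, 124, 148 and 138 CPM in the mutants. Chga was at 92.4, 94.7, 145 and 194 CPM in control animals a to d and at 141, 150, 174 and 116 CPM in the mutants. For both granins the control animals spread more widely than the mutants and enclosed all 4 of them. Vgf, a secreted protein of the same granules that is cut into peptides, was at 28 to 58.8 CPM in controls and 34.4 to 67.6 CPM in mutants. The edgeR adjusted p was 0.861 for Scg2, 0.973 for Chga and 0.874 for Vgf. With 1 animal left out, the log2 fold change was 0.14 to 0.40 for Scg2, 0.01 to 0.39 for Chga and 0.23 to 0.66 for Vgf. The 7 genes of this group had a median log2 fold change of 0.26, where the median over all tested genes was -0.00071.

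Galanin was the one precursor at the level of the granins. Gal was at 39.8, 36.8, 22.9 and 26.3 CPM in control animals a to d and at 41.1, 51.8, 49.7 and 33.9 CPM in mutant animals a to d. Mutant animal d lay inside the control range and the other 3 mutants above it. The means were 31.5 ± 8.13 and 44.1 ± 8.27 CPM (SD, n = 4), with a log2 fold change of 0.49 ± 0.24 (SE) and an edgeR adjusted p of 0.736. At 48 CPM per kilobase Gal overlapped Scg2 and Chga in the levels of single animals, and it stood above every other precursor, the next being Penk at 3.34 CPM per kilobase. Receptors of galanin were rare: Galr1 was counted in 2 mutant animals at 1.02 and 1.81 CPM, and Galr2 averaged 0.438 ± 0.507 CPM in controls and 1.42 ± 1.46 CPM in mutants (SD, n = 4).

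Adcyap1 encodes PACAP, a peptide known in the retina from the light-sensing ganglion cells that signal to the brain clock. It was at 13.7, 15.4, 13.8 and 10.1 CPM in control animals a to d and at 8.09, 7.54, 9.51 and 13.1 CPM in mutant animals a to d. The groups overlapped through mutant animal d and control animal d. Its receptor gene Adcyap1r1 was at 13, 5.83, 5.08 and 7.28 CPM in controls and at 3.61, 2.23, 0.296 and 5.67 CPM in mutants, where mutant animal d lay above control animal c. The log2 fold changes were -0.47 ± 0.33 (SE) for Adcyap1 and -1.40 ± 0.75 for Adcyap1r1, with edgeR adjusted p of 0.876 and 0.784. Vipr2, a receptor that binds both PACAP and VIP, was at 52.3 ± 7.03 CPM in controls and 45.8 ± 20.9 CPM in mutants (SD, n = 4). The VIP precursor Vip itself had 0 reads in all 11 libraries.

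Among the 14 member receptors, the highest level per kilobase belonged to one of the opioid family. Oprl1, the receptor for nociceptin, was at 80.5, 80.1, 77.1 and 70.3 CPM in control animals a to d and at 76.1, 69.2, 50.3 and 41.9 CPM in mutant animals a to d. Mutant animal a lay inside the control range and the other 3 lay below it. The log2 fold change was -0.37 ± 0.19 (SE) with an edgeR adjusted p of 0.771, and -0.24 without mutant animal d. At 18.2 CPM per kilobase Oprl1 led these 14, and its animals overlapped those of Vgf (15.2) and Crhr1 (14.8). The nociceptin precursor Pnoc was at 0 to 1.92 CPM in controls and 0 to 1.53 CPM in mutants.

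The classical opioid receptors were near 0. Oprm1, the mu receptor, whose exons partly overlap those of Ipcef1 on the other strand, had 0, 83, 3, 135 and 75 reads in control libraries 1 to 5 and 2, 40, 1, 5, 31 and 0 in mutant libraries 1 to 6. Its mean was 2.13 ± 1.61 CPM in controls and 0.491 ± 0.506 CPM in mutants (SD, n = 4), with overlap and an edgeR adjusted p of 0.895. Oprd1, the delta receptor, had 4 reads, all in control library 4. Oprk1, the kappa receptor, had 83 reads in control library 5 and 24, 0, 7, 2, 109 and 0 in mutant libraries 1 to 6. Of the precursors for enkephalin and dynorphin, Penk had reads in 10 of 11 libraries and Pdyn in 7. Penk was at 3.52 ± 2.03 CPM in controls and 7.38 ± 3.51 CPM in mutants, and Pdyn at 1.57 ± 2.51 and 4.75 ± 4.28 CPM (SD, n = 4). Their log2 fold changes were 1.07 ± 0.63 (SE) for Penk and 1.59 ± 1.49 for Pdyn, and the edgeR adjusted p was 0.826 and 0.935. The Pdyn value was 3.78 without control animal c and 0.85 without mutant animal b, and with limma voom Penk was at 2.39 and Pdyn at 3.73. The exons of Penk partly overlap an antisense gene, A830012C17Rik.

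**Figure D3:**
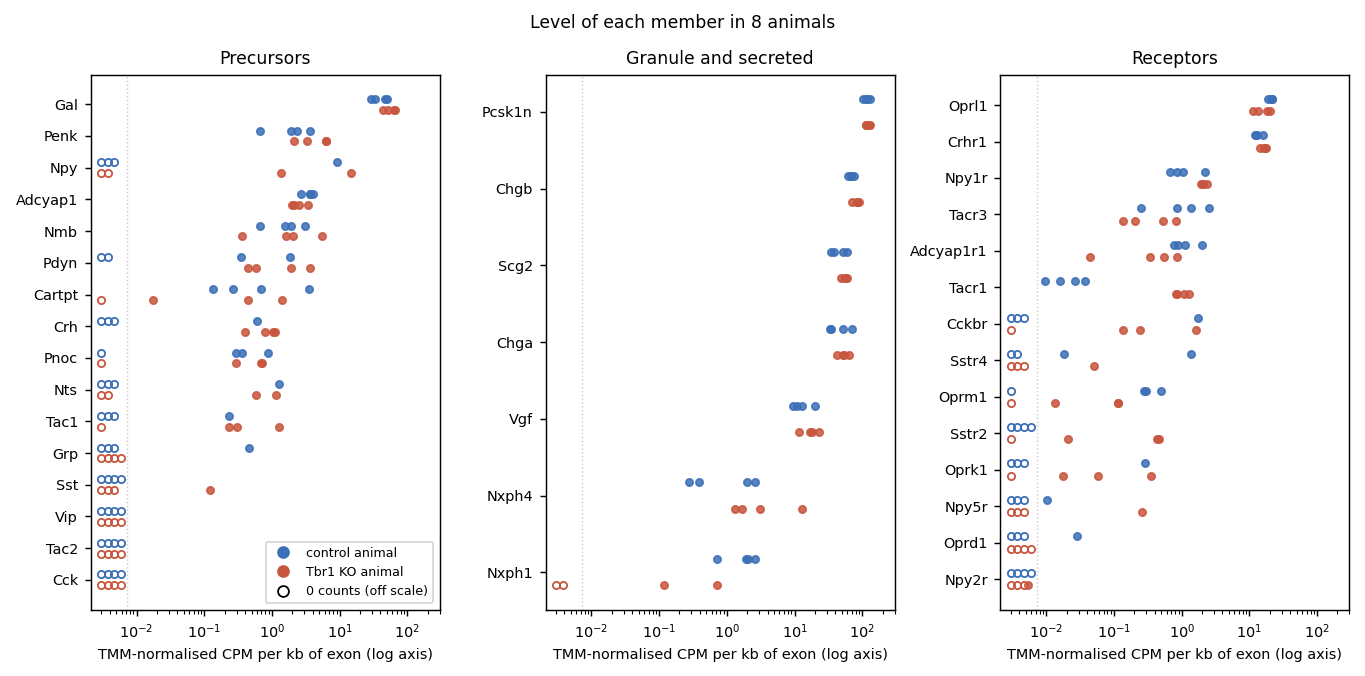
Level of all 37 genes in 8 animals, as TMM-normalised CPM per kilobase of exon on a log axis, in panels for precursors, granule and secreted proteins, and receptors. Filled points are animals (blue control, red Tbr1 KO) and open points left of the dotted line are animals with 0 reads. Pcsk1n leads at 118 CPM per kilobase, Gal stands above the other precursors, and the colours separate for Tacr1 and narrowly for Nxph1.

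Crh, the precursor of corticotropin-releasing hormone, was found in 1 of 4 control animals and in 4 of 4 mutant animals without passing. It had reads in 1 of 5 control libraries, 25 in library 5, and in all 6 mutant libraries, with 18, 6, 18, 41, 49 and 44 reads. Control animal d, at 0.785 CPM, lay above mutant animal a, at 0.535 CPM, so the groups overlapped. The log2 fold change was 2.47 ± 1.73 (SE) with an edgeR adjusted p of 0.879. Without control animal d, the one control with Crh reads, it was 8.39 (adjusted p 0.394), a fitted value that sets no bound. Its receptor gene Crhr1 was among the more abundant members in both genotypes, at 29.9, 39.3, 31.9 and 30.3 CPM in control animals a to d and 40.9, 42.7, 35.6 and 41.5 CPM in mutant animals a to d. Mutant animals a, b and d lay above all controls and c did not. The log2 fold change of Crhr1 was 0.29 ± 0.19 (SE), with an edgeR adjusted p of 0.854.

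Of the neuropeptide Y receptors, Npy1r was counted in every library. It was at 3.55, 2.93, 7.64 and 2.35 CPM in control animals a to d and at 7.13, 8.09, 7.20 and 6.74 CPM in mutant animals a to d. Control animal c lay inside the mutant range while the other 3 controls lay below it. The log2 fold change was 0.82 ± 0.52 (SE) with an edgeR adjusted p of 0.853, and it was 1.31 without control animal c. Npy2r had 1 read in all and Npy5r had 38, of which 37 came from mutant library 4. The precursor Npy had 199 reads in control library 2, 43 in mutant library 4, 285 in mutant library 5 and 0 in the other 8 libraries.

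The remaining precursors were sparse. Cartpt, a peptide gene known as a marker of ON-OFF direction-selective ganglion cells, had 110, 34, 0, 6 and 11 reads in control libraries 1 to 5 and 0, 1, 0, 0, 19 and 57 in mutant libraries 1 to 6. Control animal a, at 4.44 CPM, held most of the control level. Nmb, the neuromedin B precursor, was at 0.523 to 2.46 CPM in controls and 0.29 to 4.33 CPM in mutants, and its exons partly overlap those of Sec11a on the same strand. Nts, the neurotensin precursor, had reads in 3 libraries, 55 in control library 4, 33 in mutant library 2 and 48 in mutant library 5. Grp, the gastrin-releasing peptide precursor, had 26 reads in control library 2 and 0 elsewhere.

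Cholecystokinin, somatostatin and VIP are classical amacrine cell peptides, and their precursors were absent or nearly so. Cck had 0 reads in all 11 libraries, as did Vip and Tac2, and Sst had 4 reads, all in mutant library 2. Receptors for cholecystokinin and somatostatin among the members were patchy. Cckbr had 169 reads in control library 4 and 22, 157 and 22 in mutant libraries 4 to 6, with 0 in the other 7 libraries. Sstr2 had 65 reads, all in 3 mutant libraries, and Sstr4 had 73 reads, of which 68 came from control library 4.

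Pools from 1 animal show how patchy these members were. In control animal b, 26 members had a read in at least 1 pool, and 5 of them (Nmb, Npy, Penk, Pdyn and Nxph4) had 0 reads in 1 pool although the level in the other would have given at least 10. In mutant animal a this held for 4 of 26 members (Nts, Pdyn, Tacr3 and Oprk1) and in mutant animal b for 4 of 28 (Npy, Tac1, Npy5r and Cckbr). Tacr1 was present in both pools of all 3 animals, with 7.13 and 2.82 CPM in the libraries of mutant animal a and 7.29 and 6.52 CPM in those of mutant animal b.

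**Figure D4:**
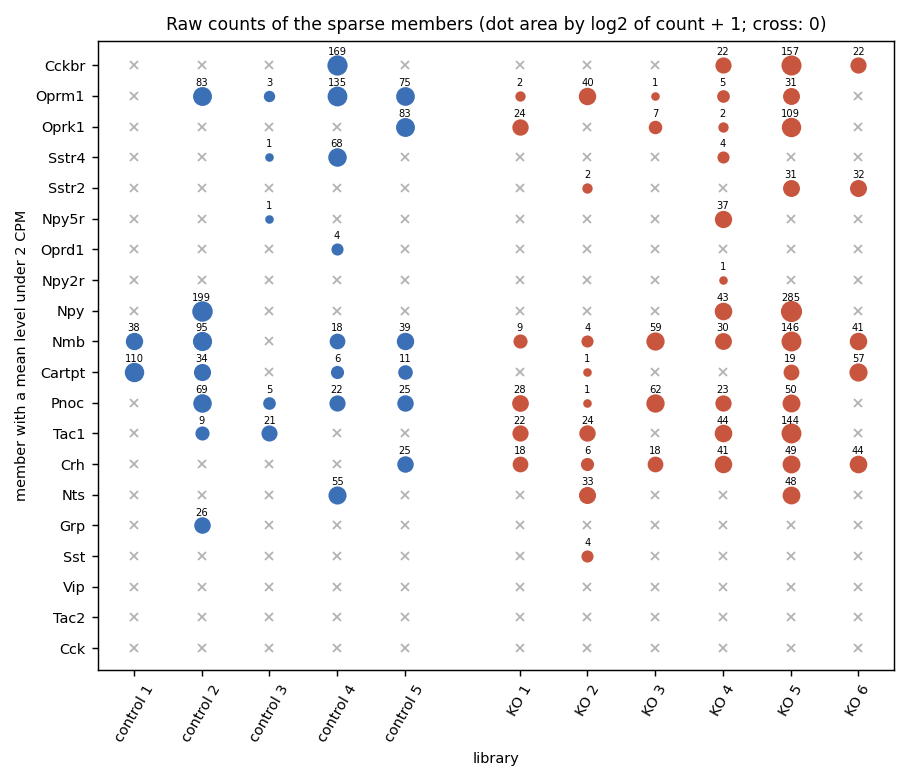
Raw reads of the 20 members with a mean level under 2 CPM in each of the 11 libraries. Dot area follows log2 of the count plus 1, the number above a dot is the count, and grey crosses are 0 reads. Crh has reads in 6 of 6 mutant libraries (4 of 4 animals) and in 1 of 5 control libraries (1 of 4 animals). Cck, Tac2 and Vip have none.

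The machinery that makes and releases peptides gave no call among 29 tested of 31 listed genes, and its levels ranged widely. Pcsk1, the convertase that proSAAS inhibits, was at 12.2 ± 2.72 CPM in controls and 11 ± 3.86 CPM in mutants (SD, n = 4). Cpe, the carboxypeptidase that trims cut precursors, was at 3371 ± 192 CPM in controls and 3129 ± 338 CPM in mutants (SD, n = 4). Pam, which amidates peptides such as substance P, was at 457 ± 65.8 and 457 ± 51.4 CPM. Pcsk2, a prohormone convertase, was at 169, 174, 174 and 175 CPM in control animals a to d and at 155, 147, 133 and 144 CPM in mutant animals a to d, with no overlap. Its log2 fold change was -0.26 ± 0.11 (SE), with an edgeR adjusted p of 0.63. Ptprn2, a granule membrane protein, was higher in every mutant animal (77.1 to 99.8 CPM) than in every control (52.2 to 75 CPM), with a log2 fold change of 0.44 ± 0.16 and an edgeR adjusted p of 0.546.

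Among 16 tested of 43 further peptide receptors and receptor partners, none passed. Gpr37, a receptor related to those for endothelin, was at 308, 299, 258 and 243 CPM in control animals a to d and at 196, 160, 145 and 183 CPM in mutant animals a to d. Ednra, an endothelin receptor, was at 8.39, 3.39, 4.88 and 2.98 CPM in control animals and at 21.5, 17.6, 15 and 26.8 CPM in mutant animals. Neither gene overlapped between genotypes. The log2 fold changes were -0.70 ± 0.13 (SE) for Gpr37 and 2.04 ± 0.40 for Ednra, with edgeR adjusted p of 0.0531 and 0.0681. Sstr1, a somatostatin receptor, was at 1.41 to 4.15 CPM in controls and at 0 in 3 mutant animals, with 0.215 CPM in mutant animal b and an edgeR adjusted p of 0.35.

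Among 9 tested of 46 further peptide precursors none passed either. Igf1, a growth factor made as a precursor, was at 34.3, 13, 15.1 and 12.7 CPM in control animals a to d and at 5.01, 5.83, 4.06 and 5.67 CPM in mutant animals a to d. The groups did not overlap, and the log2 fold change was -1.87 ± 0.40 (SE) with an edgeR adjusted p of 0.102. Astrocyte, vascular, microglial and blood markers summed to 31.8 to 88.1 CPM in controls and 15.4 to 52.8 CPM in mutants, and their part in the Igf1 level was not tested.

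Downstream of the receptors, 1 of 35 tested G proteins and effectors passed. Rgs4, which speeds the shut-off of G-protein signals, including those of Gq-coupled receptors such as the substance P receptor, was at 1687, 2016, 2135 and 2006 CPM in control animals a to d and at 504, 416, 680 and 1053 CPM in mutant animals a to d. It fell by 1.56 ± 0.23 (SE) on the log2 scale, with an edgeR adjusted p of 0.0121. Rgs4 was no longer called when control animal b, control animal d, mutant animal a or mutant animal c was left out. Plcb4, a phospholipase that Gq proteins activate, was at 22.3, 34, 45.5 and 47.7 CPM in controls and at 70.8, 79.5, 71.2 and 75.6 CPM in mutants. Its groups did not overlap, and its log2 fold change of 0.99 ± 0.23 (SE) had an edgeR adjusted p of 0.144. Gpr37 passed with libraries scaled by total counts (edgeR adjusted p = 0.0445) and with a filter at 1 CPM in 4 animals (0.045). It also passed with 11 libraries taken as independent (0.00822). Ednra passed without control animal a (edgeR adjusted p = 0.0146). Beside Rgs4, limma voom called Gpr37 (limma adjusted p = 0.0132), Ednra (0.0478) and Sstr1 (0.0441). DESeq2 called Gpr37, Ednra, Sstr1, Igf1 and Plcb4 beside Rgs4.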

How the data were processed

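RNA sequencing gave raw counts per gene symbol for 11 libraries of sorted J-RGC pools, and these counts are the deposited values. The submitters' processing notes name HTSeq 0.6.1, TopHat2 2.0.10, Trimmomatic 0.32 and the mm10 build, without roles. The sources used here give neither annotation nor strand setting. Lines that name no gene stayed out, and 60.1% to 63.9% of the reads listed were on genes. Reads carry no molecular identifiers.

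Counts were summed per animal. Genes were kept with filterByExpr (0.297 CPM in at least 4 animals), scaled with TMM, and 13957 were tested with edgeR 4.0.16 (robust quasi-likelihood, R 4.3.3). Adjustment was by Benjamini-Hochberg over all of them, with 0.05 as threshold. SE is the log2 fold change over the square root of F. Marker sums had exact permutation tests (two-sided, smallest p 0.0286). Positions and merged exon lengths are from GENCODE M21 (GRCm38).

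The fit was tested on simulated data of 4 against 4 animals, with 100 genes changed at each size. It called 41% of 2-fold and 71% of 4-fold changes, with 5 false calls. Of low genes set 32-fold lower in controls, 34% were called, with 1 false call. All changed genes had a mean of at least 2 CPM before the change, so these rates do not cover the sparser members. With nothing changed, 0 genes were called. A missing call is thus no evidence of equal levels. Members and gene lists were chosen with earlier results of these data known. Values by animal are given for members past the threshold, members without overlap, the 6 highest per kilobase and their ligands, and up to 4 genes per pathway list were eligible to be named; further genes were named after their values were seen. Alternatives covered the unit of replication, scaling, filters, limma 3.58.1, DESeq2 1.42.0 and leaving out each animal. Some genes of the lists are not reported here.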

Additional observations from a re-analysis of the deposited data

Results flagged for a closer look

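Among 64 groups of 4 animals, 8 held a highest or lowest animal whose gap to its neighbour, as a share of the group's range, passed Dixon's 95% critical value. Chance passes about 1 in 20 groups of normally spread values, a rate that need not hold for members near 0 reads. Mutant animal c stood apart for Nxph4 at 21.7 CPM and for Cckbr at 4.65 CPM, and control animal c stood apart for Cckbr at 4.91 CPM. Mutant animal b stood apart for Nxph1 at 3.37 CPM, where the other mutants were at 0 to 0.564 CPM. Cartpt was high in control animal a at 4.44 CPM, Crh in control animal d at 0.785 CPM and Tac1 in control animal b at 0.777 CPM. The summed amacrine markers were highest in mutant animal b at 1113 CPM.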

How the results depend on the processing

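Over all genes, 40 were called, against 84 with 11 libraries taken as independent, 76 with limma voom and 156 with DESeq2. Leaving out 1 animal gave 17 to 44 calls, with 18 calls when control animal b was dropped and 22, 17 and 25 when mutant animals a, b and d were dropped in turn. The members called ranged from 0 to 1 over these omissions, with 0 on dropping control animal b or 1 of the mutants a, b and d, and Tacr1 alone was called under every other alternative. Of the pathway genes 1 was called, against 2 with libraries as independent, 4 with limma voom, 6 with DESeq2, 2 with total counts and 2 with a filter at 1 CPM in 4 animals, and leaving out 1 animal gave 0 to 2. Of 445 member values under alternatives, 430 kept direction and side of the threshold. The log2 fold change of Pnoc was -0.07 with limma voom. Leaving out 1 animal gave -2.90 to 0.34 for Cartpt, -0.43 to 0.78 for Nmb, -0.28 to 0.94 for Pnoc (-0.24 and -0.20 without mutant animals b and c), -0.0017 to 0.11 for Pcsk1n, and -1.75 to 8.74 for Cckbr (-0.18, -0.20 and -0.19 without control animals a, b and d). The cause was not tested. The log2 differences of marker sums ranged from -1.70 to -1.56 for the J-RGC genes, 0.50 to 0.68 for amacrine, 0.69 to 0.89 for horizontal cell and 0.47 to 0.69 for Müller glia and progenitor markers with 1 animal left out, where the smallest possible p is 0.0571. Chosen after seeing the data, the bipolar sum without Isl2 and Prkca gave 0.92 against 0.66.

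With the replicate number of the titles as a block, 43 genes, 1 member (Tacr1, log2 fold change 5.36, edgeR adjusted p 0.0398) and 1 pathway gene were called. The block moved the log2 fold change to -5.55 for Nxph1, 5.39 for Crh, 4.87 for Tac1 and 4.24 for Pdyn, none of them called. Libraries of the same number shared little beyond it, with correlations of 0.0297, 0.00383, -0.0283, -0.00075 and 0.128 for numbers 1 to 5, and numbers 1 and 5 alone correlated best with their own number. Without the filter, 10 more members were tested, with a lowest adjusted p of 0.55. Members near 0 reads are limited by depth and by pools of 100 cells.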
